A study of Mus musculus with 9 samples.

Results

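The replication fork genes are 41 mouse genes whose products copy DNA at the fork and finish the copy behind it. They were chosen by symbol from a fixed list: the replicative polymerases, the sliding clamp and its loaders, the single-strand binding protein RPA, the GINS complex with CDC45, Okazaki fragment processing, fork protection, chromatin assembly, 3 origin factors, and 2 proteins that remove errors behind the fork. The list was drawn up with earlier results of these data known. All 41 were found among the 53170 named genes of the deposited table, and all 41 had enough signal to be among the 12012 genes tested. The cells were RAW264.7, a wild-type line of mouse macrophage-like cells, and their RNA was sequenced in 9 libraries, 3 to a group. In the BMC+LIPUS group the cells grew on a membrane labelled BMC and received low-intensity pulsed ultrasound. In the BMC group the cells grew on the same membrane without ultrasound. The control group was a blank control without either. All groups had αMEM medium with serum. The series title speaks of piezoelectric membranes and macrophage polarization, and the labels do not spell out BMC or give the ultrasound dose or the time in culture. No group had ultrasound without the membrane. Whether replicate libraries were made from different cultures is not stated, and p-values here may therefore reflect technical spread alone.

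At a replication fork, the CMG helicase, made of the MCM ring, CDC45 and GINS, unwinds the parental strands, and RPA coats the single strands that appear. Polymerase alpha with its primase lays down short primers. Polymerase epsilon then extends the leading strand, while polymerase delta copies the lagging strand in Okazaki fragments that are trimmed and joined. PCNA is the ring that holds these polymerases on DNA, and RFC-type complexes load and unload it. Many of these genes are transcribed most strongly as cells enter S phase, under control of E2F transcription factors, and macrophages that stop dividing turn many of them down.

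The promoters are shown because an E2F site is the textbook control element of this group. Whether E2F factors had a part in the changes reported below was not tested. In the RefSeq promoter windows at hand, which run from 250 bases before to 50 bases after a gene's start on build GRCm38.p6, 31 of the 41 genes had 1 or more windows. A gene was counted once, as holding a word if any of its windows did. The words TTTCCCGC, TTTGGCGC, TTTCGCGC and TTTGCCGC, read on both strands, stood in for the E2F site. They occurred in 10 of the 31 genes (32.3%), in 7 of 57 other replication and repair genes with a window (12.3%) and in 426 of 8376 of all genes tested with a window (5.09%). The CCAAT box, searched as CCAAT on both strands, occurred in 61.3% of the fork genes with a window, 47.4% of the other replication and repair genes and 43.7% of all genes. The CHR element, searched as TTTGAA on both strands, occurred in 12.9%, 12.3% and 14.6% of the same sets of genes. A match is a run of letters and not a shown binding site. The 150 bases before the start are printed 5′ to 3′ for 4 genes with an E2F word, in capitals, and for Ung, the gene with the largest fall on the membrane, for which no word was found. Pola1 lies at chrX:93632156-93632305 on the minus strand, Rfc3 at chr5:151651209-151651358 on the minus strand, Gins3 at chr8:95633409-95633558 on the plus strand, Orc1 at chr4:108579304-108579453 on the plus strand and Ung at chr5:114130285-114130434 on the plus strand.
Pola1: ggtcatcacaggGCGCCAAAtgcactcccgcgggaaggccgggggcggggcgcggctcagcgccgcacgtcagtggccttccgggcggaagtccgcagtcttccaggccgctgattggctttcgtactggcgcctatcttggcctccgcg
Rfc3: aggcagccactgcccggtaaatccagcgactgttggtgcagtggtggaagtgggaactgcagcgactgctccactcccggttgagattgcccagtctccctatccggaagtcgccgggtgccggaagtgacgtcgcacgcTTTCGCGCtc
Gins3: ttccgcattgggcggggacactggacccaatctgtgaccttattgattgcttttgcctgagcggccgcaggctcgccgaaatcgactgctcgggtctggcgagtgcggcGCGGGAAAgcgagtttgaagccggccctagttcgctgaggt
Orc1: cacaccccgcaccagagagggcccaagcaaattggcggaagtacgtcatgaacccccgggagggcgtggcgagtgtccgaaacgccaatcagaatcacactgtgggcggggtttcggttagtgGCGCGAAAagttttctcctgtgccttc
Ung: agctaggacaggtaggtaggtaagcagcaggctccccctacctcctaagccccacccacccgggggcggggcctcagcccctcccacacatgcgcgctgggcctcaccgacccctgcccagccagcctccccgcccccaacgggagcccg

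In the other 6 genes with an E2F word the word lay near or after the annotated start. A stretch of 28 bases that holds the word, again in capitals, shows that both orientations occurred.
Pold1: cggcggcgtatcttgtgGCGGGAAAagc
Pold3: agcgaagctgTTTCCCGCcggcgggagc
Pole2: gtcggcggtgGCGCCAAAtcgcgaacat
Lig1: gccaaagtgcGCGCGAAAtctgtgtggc
Clspn: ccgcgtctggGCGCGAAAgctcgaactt
Msh6: tcctcccgacTTTCCCGCcagcggcggc
These stretches lie at chr7:44548766-44548793 on the minus strand, chr7:100121468-100121495 on the minus strand, chr12:69228163-69228190 on the minus strand, chr7:13278842-13278869 on the plus strand, chr4:126556991-126557018 on the plus strand and chr17:87975055-87975082 on the plus strand, in the order printed. The 10 genes with a word had a median log2 change of -0.99 in BMC against control, and the 21 genes with a window but no word had a median of -0.90, with Ung and Timeless among them.

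All 41 genes fell on the membrane, with and without ultrasound, and no gene of the list rose. Because the list was drawn up with earlier results of these data known, the shares of all genes describe it and do not test it. Other subunits of the same complexes, given further on, did not all fall. A gene was called at a Benjamini-Hochberg adjusted p under 0.05 in edgeR's quasi-likelihood test over all genes tested. In BMC+LIPUS against control, 41 of 41 were called lower, where 21.9% of all genes tested were, and 26 of them were at least 2-fold lower, where 3.16% of all genes were. The median log2 change was -1.12, or 2.17-fold lower, against a median of 0.01 over all genes tested, and the 41 changes ran from 1.30-fold to 4.51-fold lower. In BMC against control, 41 of 41 were called lower, where 18.8% of all genes tested were, and 16 were at least 2-fold lower, where 1.9% of all genes were. The median log2 change was -0.92, or 1.89-fold lower, against 0.01 over all genes, and the range was 1.25-fold to 3.13-fold lower. These comparisons share the 3 control libraries, so their agreement is not independent. In both, the 3 membrane libraries lay under the 3 control libraries for every one of the 41 genes, which held for 31.3% of all genes in BMC+LIPUS against control and 29.4% in BMC against control.

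Summed over the list, the 41 genes took 1553, 1664 and 1487 counts out of each 1000000 in the BMC+LIPUS libraries, 1901, 1825 and 1716 in the BMC libraries, and 3399, 3587 and 3435 in the control libraries. The 3 groups did not overlap on this sum. The level of the typical member, as the median over the 41 genes of its group mean, was 5.88 FPKM in BMC+LIPUS, 6.94 FPKM in BMC and 14.1 FPKM in control. FPKM are fragments per kilobase of transcript, scaled to the library's total, so levels of different genes can be set side by side. Pcna was the highest and Dscc1 the lowest member in every group. Dscc1 stood at 51, 42 and 32 counts in the BMC+LIPUS libraries, 76, 79 and 44 in the BMC libraries and 169, 253 and 212 in the control libraries. In bulk RNA, fewer cells in S phase and less RNA of these genes per cell cannot be told apart.

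**Figure D1:**
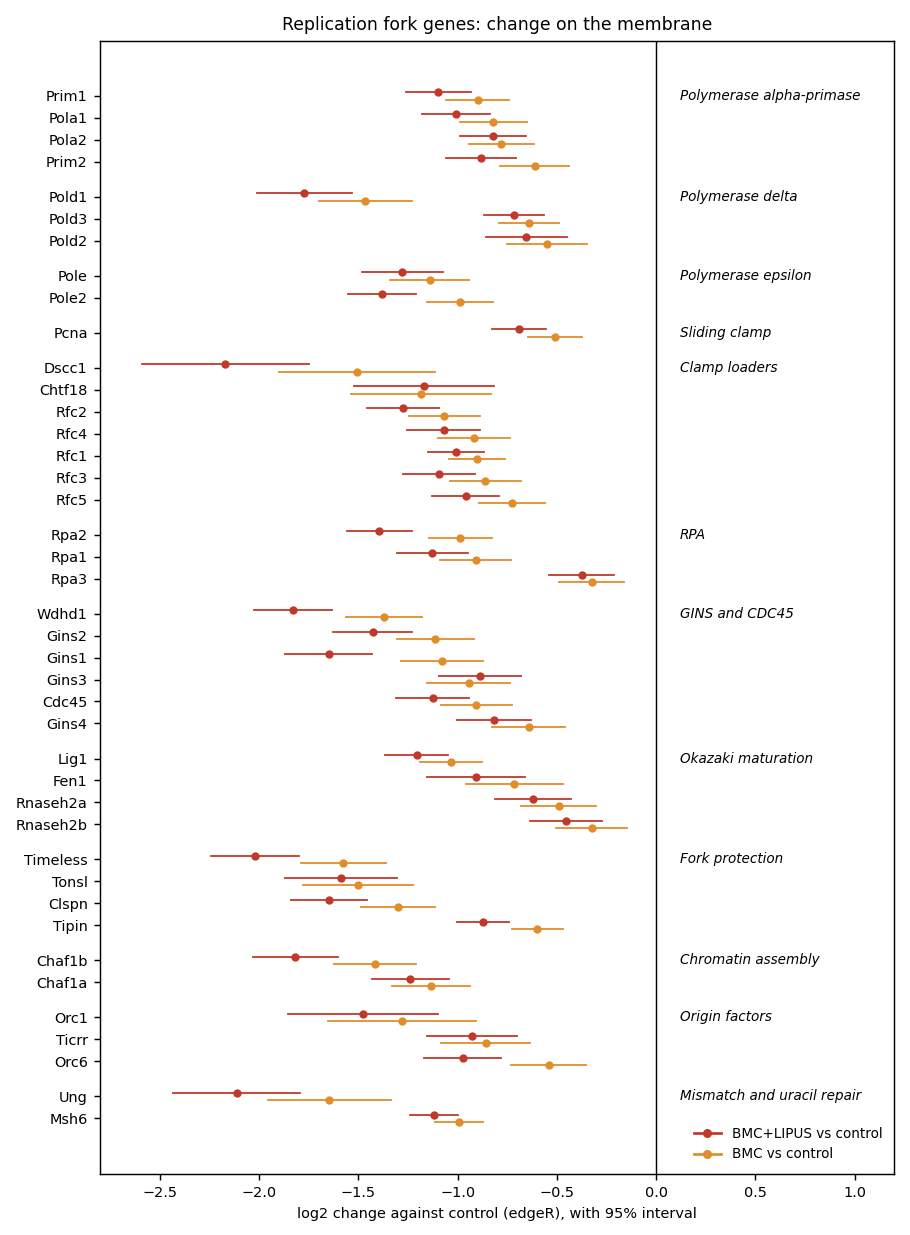
Log2 change of each of the 41 genes against control (horizontal axis) with its 95% interval from edgeR, by role group; red is BMC+LIPUS against control and orange is BMC against control. All points lie left of 0, and in this fit the falls of Dscc1, Ung and Timeless in BMC+LIPUS pass -2 and those of Rpa3 and Rnaseh2b are the smallest; on the log2(FPKM + 1) scale Dscc1 falls by less than Ung (-1.32 against -1.82).

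The 4 genes of polymerase alpha-primase, which makes the primers, fell by similar amounts. The median log2 change was -0.94 in BMC+LIPUS against control and -0.80 in BMC against control. Prim1, the catalytic primase subunit, had 8.91, 8.54 and 8.13 FPKM in the BMC+LIPUS libraries, 10.5, 10.1 and 8.84 FPKM in the BMC libraries, and 18.7, 20.3 and 18.4 FPKM in the control libraries. Prim2, the large primase subunit, had 4.53, 4.95 and 4.08 FPKM in BMC+LIPUS, 5.68, 5.66 and 5.05 FPKM in BMC, and 8.48, 9.38 and 8.33 FPKM in control. Every control library lay above every membrane library for both genes. Prim1 was 2.14-fold lower in BMC+LIPUS (adjusted p = 1.42e-08) and 1.87-fold lower in BMC (adjusted p = 1.97e-07), both against control by edgeR. Prim2 was 1.84-fold lower in BMC+LIPUS and 1.53-fold lower in BMC. Pola1, the catalytic polymerase subunit, was 2.01-fold and Pola2, its regulatory subunit, 1.77-fold lower in BMC+LIPUS than in control.

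Within polymerase delta, the catalytic subunit had a larger fall than its partners, with no overlap of their 95% intervals, although the difference was not tested. Pold1, the catalytic subunit with proofreading activity, had 4.97, 6.13 and 4.38 FPKM in the BMC+LIPUS libraries, 7.75, 5.70 and 5.72 FPKM in the BMC libraries, and 17.9, 18.9 and 18.6 FPKM in the control libraries. Pold2, a regulatory subunit, had 16.1, 20.6 and 17.2 FPKM in BMC+LIPUS, 19.1, 20.8 and 18.1 FPKM in BMC, and 30.5, 26.5 and 31.9 FPKM in control. Pold1 lay far under the control libraries in all 6 membrane libraries, while the gap between the groups was small for Pold2. Pold1 was 3.42-fold lower in BMC+LIPUS (log2 -1.77, SE 0.11, adjusted p = 6.12e-09) and 2.76-fold lower in BMC (log2 -1.47, SE 0.11, adjusted p = 6.93e-08), against control. Pold2 was 1.57-fold lower in BMC+LIPUS and 1.46-fold lower in BMC. The ratio of Pold1 to Pold2 FPKM averaged 0.287 ± 0.028 in BMC+LIPUS, 0.332 ± 0.067 in BMC and 0.626 ± 0.074 in control (SD, n = 3). Pold3, which stimulates the enzyme through PCNA, was 1.64-fold lower in BMC+LIPUS and 1.56-fold lower in BMC than in control.

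Both listed subunits of polymerase epsilon, the leading-strand enzyme, fell. Pole, its catalytic subunit, had 2.81, 3.52 and 2.82 FPKM in the BMC+LIPUS libraries, 3.37, 3.74 and 2.95 FPKM in the BMC libraries, and 7.29, 8.30 and 7.62 FPKM in the control libraries. Pole2, which tethers the enzyme to GINS, had 5.49, 5.96 and 6.04 FPKM in BMC+LIPUS, 7.69, 7.82 and 7.49 FPKM in BMC, and 15.5, 16.6 and 15.6 FPKM in control. The groups of Pole2 did not overlap at all, with BMC+LIPUS at the bottom, and those of Pole overlapped between BMC+LIPUS and BMC. Pole was 2.43-fold lower in BMC+LIPUS and 2.21-fold lower in BMC than in control. Pole2 was 2.60-fold lower in BMC+LIPUS (adjusted p = 2.18e-09) and 1.99-fold lower in BMC (adjusted p = 1.10e-07) than in control.

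Pcna, the sliding clamp, was the most abundant member and fell less than most. It had 106, 99.5 and 113 FPKM in the BMC+LIPUS libraries, 122, 115 and 124 FPKM in the BMC libraries, and 172, 187 and 179 FPKM in the control libraries. The 3 groups did not overlap. Pcna was 1.61-fold lower in BMC+LIPUS (log2 -0.69, SE 0.06) and 1.42-fold lower in BMC (log2 -0.51, SE 0.06), each against control. A processed copy, Pcna-ps2, had 29 to 85 counts in a library, where Pcna had 3030 to 7464, and Pcna-ps1 had none.

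The 7 clamp loader genes fell, and Dscc1 had the largest fitted fall in the edgeR fit. Dscc1, which joins CHTF18 in the alternative loader that acts in leading-strand synthesis and cohesion, had 0.75, 0.75 and 0.53 FPKM in the BMC+LIPUS libraries, 1.23, 1.21 and 0.77 FPKM in the BMC libraries, and 2.67, 3.44 and 3.49 FPKM in the control libraries. Rfc5, a small subunit of the main loader, had 9.71, 9.91 and 7.97 FPKM in BMC+LIPUS, 10.7, 11.1 and 10.8 FPKM in BMC, and 17.4, 19.9 and 19.0 FPKM in control. For both genes all 3 groups were apart. Dscc1 was 4.51-fold lower in BMC+LIPUS (log2 -2.17, SE 0.20, adjusted p = 3.30e-07) and 2.84-fold lower in BMC (log2 -1.51, SE 0.19, adjusted p = 1.20e-05), against control. On the log2(FPKM + 1) scale with limma, which understates changes of low genes, its log2 changes were -1.32 in BMC+LIPUS and -1.02 in BMC, smaller than those of Ung (-1.82 and -1.47). Chtf18, the large subunit of the same loader, was 2.25-fold lower in BMC+LIPUS and 2.27-fold lower in BMC. The large subunit Rfc1 and the small subunits Rfc2, Rfc3, Rfc4 and Rfc5 form the main loader, and they were 1.95-fold (Rfc5) to 2.42-fold (Rfc2) lower in BMC+LIPUS and 1.66-fold (Rfc5) to 2.10-fold (Rfc2) lower in BMC.

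The 3 subunits of RPA, the single-strand binding protein, fell by different amounts, a difference that was not tested. Rpa2, the subunit phosphorylated under replication stress, had 13.2, 13.8 and 11.6 FPKM in the BMC+LIPUS libraries, 18.8, 16.8 and 15.6 FPKM in the BMC libraries, and 36.4, 35.2 and 34.6 FPKM in the control libraries. Rpa1, the large DNA-binding subunit, had 21.1, 23.2 and 17.6 FPKM in BMC+LIPUS, 26.3, 24.4 and 21.5 FPKM in BMC, and 47.0, 50.3 and 44.4 FPKM in control. Rpa3, the smallest subunit, had 24.5, 24.1 and 22.4 FPKM in BMC+LIPUS, 25.6, 22.9 and 25.4 FPKM in BMC, and 32.4, 31.8 and 32.4 FPKM in control. Rpa2 separated all 3 groups, while the membrane groups overlapped for Rpa1 and Rpa3. Rpa2 was 2.63-fold lower in BMC+LIPUS (adjusted p = 1.19e-09) and 1.98-fold lower in BMC (adjusted p = 6.98e-08), against control. Rpa1 was 2.18-fold and 1.88-fold lower in the same comparisons. Rpa3 was 1.30-fold lower in BMC+LIPUS (95% interval of the log2 change -0.54 to -0.21) and 1.25-fold lower in BMC (-0.49 to -0.16), the smallest falls of the list together with Rnaseh2b in BMC. The ratio of Rpa2 to Rpa3 FPKM averaged 0.542 in BMC+LIPUS, 0.696 in BMC and 1.10 in control.

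**Figure D2:**
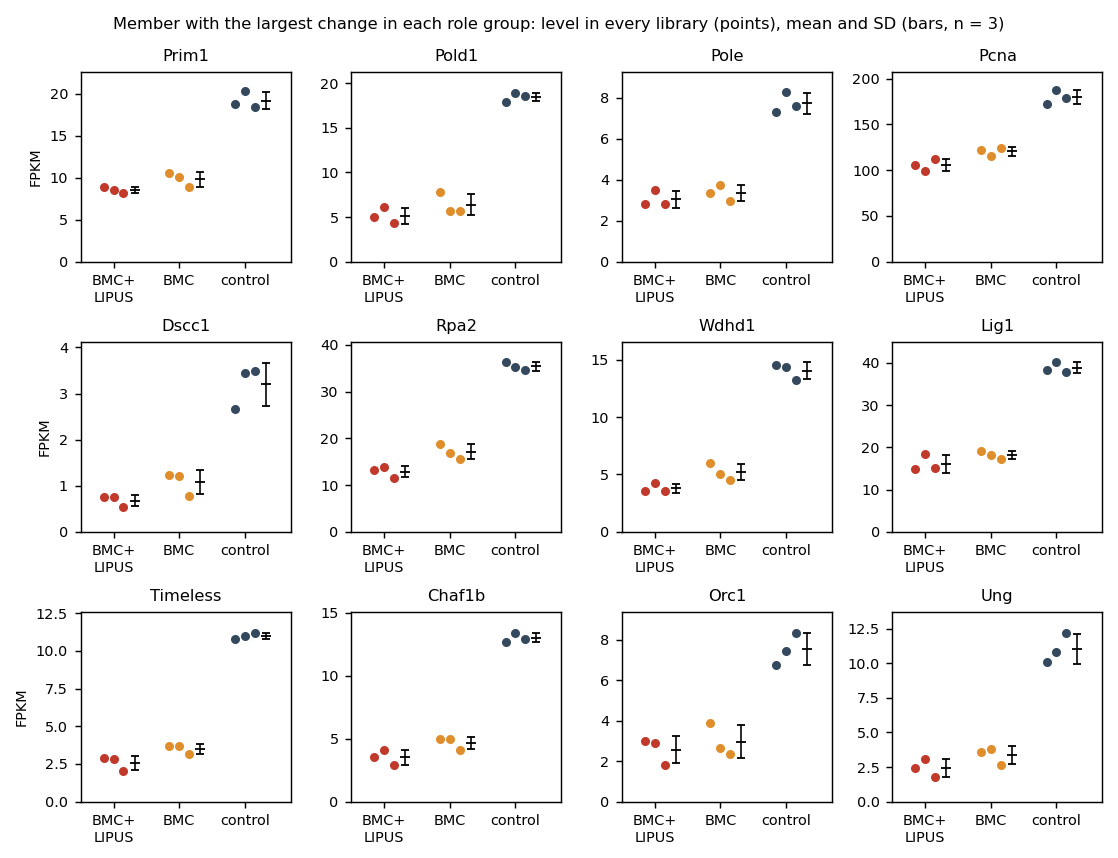
FPKM in each library (points) with the mean and SD of the 3 libraries (bars), for the member of each role group with the largest change in BMC against control; groups run BMC+LIPUS, BMC, control from left to right and each vertical axis starts at 0. In all 12 panels the control libraries sit above the 6 membrane libraries.

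Among the helicase partners, the replisome scaffold gene Wdhd1 fell furthest. Wdhd1, which links the helicase to polymerase alpha, had 3.56, 4.24 and 3.52 FPKM in the BMC+LIPUS libraries, 5.99, 5.06 and 4.55 FPKM in the BMC libraries, and 14.5, 14.4 and 13.2 FPKM in the control libraries. Gins4, also called SLD5, had 14.8, 18.2 and 14.7 FPKM in BMC+LIPUS, 18.4, 18.2 and 17.3 FPKM in BMC, and 28.3, 30.6 and 29.1 FPKM in control. Cdc45, the helicase cofactor that binds both MCM and GINS, had 7.53, 7.89 and 7.48 FPKM in BMC+LIPUS, 8.54, 10.1 and 8.13 FPKM in BMC, and 16.3, 17.9 and 18.3 FPKM in control. The 3 groups stood apart for Wdhd1 and Cdc45, and the membrane groups overlapped for Gins4. Wdhd1 was 3.56-fold lower in BMC+LIPUS (adjusted p = 5.66e-10) and 2.59-fold lower in BMC (adjusted p = 1.59e-08), against control. Cdc45 was 2.18-fold lower in BMC+LIPUS and 1.87-fold lower in BMC. The 4 GINS genes encode a tetramer of equal parts, and their falls ran from 1.76-fold (Gins4) to 3.14-fold (Gins1) in BMC+LIPUS and from 1.56-fold (Gins4) to 2.16-fold (Gins2) in BMC.

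Of the 4 genes of Okazaki fragment maturation, the ligase fell furthest and the RNase H2 subunits least. Lig1, which seals the fragments, had 14.8, 18.4 and 15 FPKM in the BMC+LIPUS libraries, 19.1, 18.1 and 17.2 FPKM in the BMC libraries, and 38.3, 40.3 and 38.0 FPKM in the control libraries. Rnaseh2b, a subunit of the enzyme that removes RNA from RNA:DNA hybrids, had 3.32, 3.26 and 3.03 FPKM in BMC+LIPUS, 3.80, 3.31 and 3.44 FPKM in BMC, and 4.74, 4.52 and 4.56 FPKM in control. Both genes overlapped between the membrane groups and not between membrane and control. Lig1 was 2.31-fold lower in BMC+LIPUS and 2.05-fold lower in BMC than in control. Rnaseh2b was 1.37-fold lower in BMC+LIPUS and 1.25-fold lower in BMC (adjusted p = 0.00679). Rnaseh2a, the catalytic subunit, was 1.54-fold and 1.41-fold lower in those comparisons, and the flap nuclease gene Fen1 was 1.87-fold and 1.64-fold lower.

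Fork protection held some of the deepest falls. Timeless, a scaffold that couples helicase and polymerase and passes on checkpoint signals, had 2.89, 2.82 and 2.02 FPKM in the BMC+LIPUS libraries, 3.72, 3.69 and 3.14 FPKM in the BMC libraries, and 10.8, 11 and 11.2 FPKM in the control libraries. Its partner Tipin had 60.4, 61.5 and 57.2 FPKM in BMC+LIPUS, 77.2, 74.4 and 65.7 FPKM in BMC, and 113, 117 and 115 FPKM in control. All 3 groups were apart for both genes. Timeless was 4.06-fold lower in BMC+LIPUS (adjusted p = 6.75e-10) and 2.98-fold lower in BMC (adjusted p = 1.29e-08), against control. Tipin was 1.83-fold and 1.51-fold lower, so the ratio of Timeless to Tipin FPKM averaged 0.043 in BMC+LIPUS, 0.0485 in BMC and 0.0958 in control. Clspn, the mediator that brings CHK1 to ATR, was 3.14-fold lower in BMC+LIPUS and 2.46-fold lower in BMC. Tonsl, which with MMS22L binds new histone H4 and helps repair broken forks, was 3.01-fold and 2.83-fold lower.

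Both subunits particular to CAF-1, the chaperone that lays histones on new DNA, fell. Chaf1b had 3.55, 4.09 and 2.92 FPKM in the BMC+LIPUS libraries, 4.95, 4.94 and 4.08 FPKM in the BMC libraries, and 12.7, 13.4 and 12.9 FPKM in the control libraries. Chaf1a, the PCNA-binding subunit, had 4.54, 5.69 and 4.25 FPKM in BMC+LIPUS, 5.38, 5.55 and 4.65 FPKM in BMC, and 11.2, 12.5 and 12 FPKM in control. The control libraries lay well above both membrane groups, which overlapped with each other. Chaf1b was 3.53-fold lower in BMC+LIPUS and 2.67-fold lower in BMC than in control. Chaf1a was 2.36-fold and 2.20-fold lower in those comparisons.

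The 3 origin factor genes fell. Orc1, the large subunit of the origin recognition complex that in human cells comes and goes with the cell cycle, had 2.99, 2.92 and 1.80 FPKM in the BMC+LIPUS libraries, 3.88, 2.64 and 2.35 FPKM in the BMC libraries, and 6.77, 7.45 and 8.35 FPKM in the control libraries. Orc6, a small subunit needed for loading the MCM ring, had 11.6, 11.2 and 9.56 FPKM in BMC+LIPUS, 16.6, 14.4 and 12.8 FPKM in BMC, and 22.7, 21.6 and 22.4 FPKM in control. The membrane groups overlapped for Orc1 and were apart for Orc6. Orc1 was 2.79-fold lower in BMC+LIPUS (log2 -1.48, SE 0.18) and 2.43-fold lower in BMC (log2 -1.28, SE 0.18), against control. Orc6 was 1.96-fold lower in BMC+LIPUS and 1.46-fold lower in BMC. Ticrr, also called Treslin, which helps bring CDC45 to origins, was 1.9-fold and 1.81-fold lower.

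Both repair genes of the list fell, and Ung had the largest fall of all 41 in BMC against control. Ung, whose nuclear form removes uracil misincorporated at the fork, had 2.42, 3.11 and 1.78 FPKM in the BMC+LIPUS libraries, 3.62, 3.83 and 2.62 FPKM in the BMC libraries, and 10.1, 10.8 and 12.2 FPKM in the control libraries. Msh6, a mismatch repair protein that recognises mispaired bases, had 18.4, 19.6 and 18.7 FPKM in BMC+LIPUS, 21.5, 20.6 and 19.8 FPKM in BMC, and 43.9, 43.9 and 41.3 FPKM in control. The groups were apart for Msh6, and the membrane groups overlapped for Ung. Ung was 4.33-fold lower in BMC+LIPUS (log2 -2.11, SE 0.15, adjusted p = 2.00e-08) and 3.13-fold lower in BMC (log2 -1.65, SE 0.15, adjusted p = 3.56e-07), against control. Msh6 was 2.17-fold lower in BMC+LIPUS and 1.99-fold lower in BMC, with the smallest SE of the list, 0.06 on the log2 scale.

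In a wider list of 72 other genes of the same processes, more genes were called lower than higher. Of these, 70 were tested, Poln and Neil2 being too low. In BMC+LIPUS against control, 42 were called lower, 8 higher and 20 neither, with a median log2 change of -0.33. In BMC against control, 38 were called lower, 5 higher and 27 neither, with a median of -0.24. The log2 change was below 0 for 57 of the 70 in BMC+LIPUS and for 56 in BMC. The shares of all genes tested were 21.9% called lower and 21.1% called higher in BMC+LIPUS, and 18.8% lower and 17.2% higher in BMC. This list too was drawn up with earlier results known, so the shares describe it and do not test it. Among the 4 largest called falls in BMC against control were those of Mcm10, a helicase activator (log2 -1.42), Exo1, the mismatch repair exonuclease (-1.30), and Atad5, which takes PCNA off DNA (-1.14). The 4 largest called rises were those of the translesion polymerase Polk (log2 1.17), the base excision polymerase Polb (0.36), the nuclease subunit Ercc1 (0.32) and the checkpoint clamp loader Rad17 (0.26). Polk had a mean of 9.03 FPKM in BMC+LIPUS, 8.87 FPKM in BMC and 4.12 FPKM in control. The calls of Polb, Ercc1 and Rad17 were lost under library totals as the scaling, among other settings.

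Within single complexes, some subunits were called lower and others were not. The genes of this paragraph were picked after their values were seen, and the differences between subunits were not tested. Of the 14 other subunits and partners on the wider list, 8 were called lower and 1 higher in BMC+LIPUS against control, and 8 lower and 0 higher in BMC against control. The shares of all genes to set beside these counts are those given with the wider list. Subunits and partners called lower included Mms22l, the partner of TONSL, at -1.27 in BMC+LIPUS. In the origin recognition complex, Orc2 had a log2 change of -0.21 (called lower) in BMC against control, Orc3 of -0.01 (95% interval -0.17 to 0.14), Orc4 of 0.09 (-0.12 to 0.30) and Orc5 of 0.08 (-0.10 to 0.27), beside -1.28 for Orc1 and -0.54 for Orc6. The small polymerase subunits Pold4 (0.28, interval -0.04 to 0.60) and Pole4 (0.17, interval 0.02 to 0.32) were not called in BMC, and Pole4 was called higher in BMC+LIPUS (0.20). Pole3, the other small subunit of polymerase epsilon, was called lower in BMC+LIPUS (-0.36) and in BMC (-0.24). Chtf8, the third partner of CHTF18 and DSCC1, had a log2 change of -0.16 and was not called. Rbbp4, the histone-binding subunit of CAF-1 that also sits in other complexes, had -0.09 and was not called. Of the enzymes that remove uracil or thymine, Smug1 (0.20) and Tdg (0.33) were not called in BMC and Mbd4 fell (-1.09). Tdg was called higher in BMC+LIPUS against control (0.61, adjusted p = 0.0226). The ratio of Ung to Smug1 FPKM averaged 0.772 in BMC+LIPUS, 1.05 in BMC and 3.77 in control, and that of Orc1 to Orc3 averaged 0.177, 0.195 and 0.477 in the same order. The 3 RNase H2 subunits were all called lower, with log2 changes of -0.49 for Rnaseh2a, -0.32 for Rnaseh2b and -0.33 for Rnaseh2c in BMC against control.

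**Figure D3:**
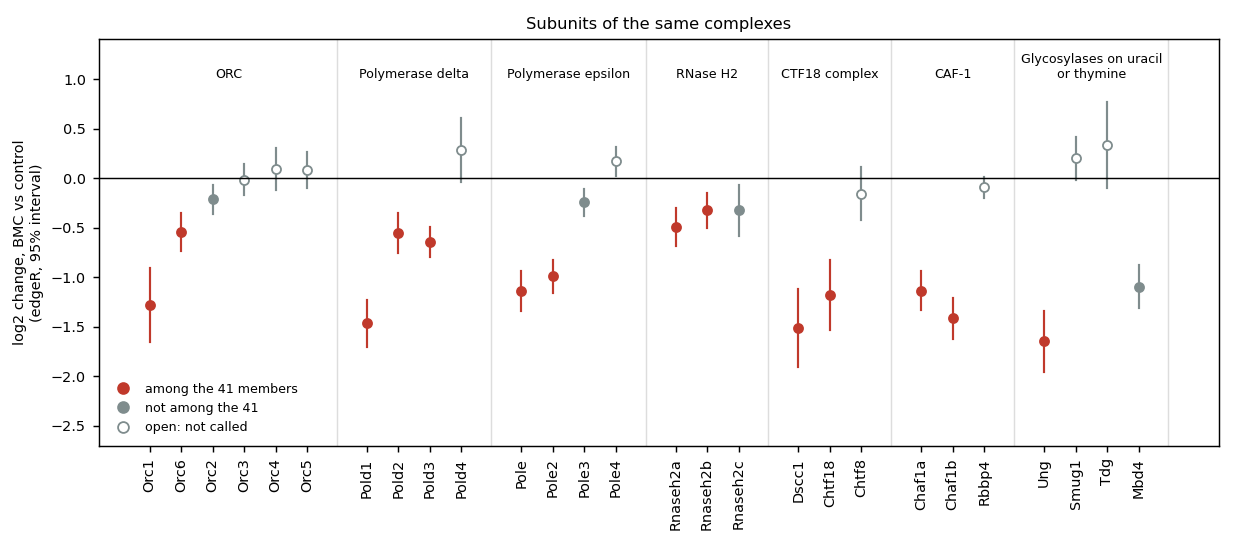
Log2 change in BMC against control (vertical axis, 95% interval from edgeR) of the subunits of 7 complexes or enzyme groups; red points are among the 41 genes, grey points are not, and open points were not called. Orc3, Orc4, Orc5, Pold4, Pole4, Chtf8, Rbbp4, Smug1 and Tdg lie near or above 0 while the red points run from -0.32 (Rnaseh2b) to -1.65 (Ung). The other grey points, Mbd4 (-1.09), Rnaseh2c (-0.33), Pole3 (-0.24) and Orc2 (-0.21), were called lower.

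The ultrasound comparison, BMC+LIPUS against BMC, asks what the pulses add on the membrane. By edgeR at an adjusted p under 0.05, 0 of the 41 genes were called, where 13 of all 12012 genes (0.108%) were, 2 of them lower (0.0167%). At an unadjusted p under 0.05, 24 of the 41 passed, all of them lower, where 5.21% of all genes tested were lower at that level. DESeq2 called 7 of the 41 lower, where it called 88 of all genes in either direction. With limma on log2(FPKM + 1), 0 of the 41 and 0 of all genes were called. The fitted log2 change was below 0 for 39 of the 41, where 50.6% of all genes lay below 0, and the exceptions were Gins3 (0.06) and Chtf18 (0.01). The median of the 41 changes was -0.20, or 1.15-fold lower, against 0.00 over all genes tested. The 3 BMC+LIPUS libraries lay under the 3 BMC libraries for 18 of the 41, where 8.07% of all genes did so. The 41 genes were read in the same 6 libraries, so 39 of 41 is not 39 independent observations. The median level of the 41 genes, as a percentage of the control mean, was 43.5, 47.5 and 42.5 in the BMC+LIPUS libraries, 52.6, 50.1 and 46.5 in the BMC libraries, and 97.9, 102 and 100.5 in the control libraries.

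The 4 genes with the smallest p in this comparison missed the threshold by edgeR. Gins1, also called PSF1, a subunit of the GINS tetramer, had 8.11, 6.66 and 6.92 FPKM in the BMC+LIPUS libraries, against 10.9, 11.8 and 9.76 FPKM in the BMC libraries. Its groups were apart, with a log2 change of -0.57 (95% interval -0.80 to -0.34, adjusted p = 0.0541). Rpa2, Wdhd1 and Orc6, whose libraries are given with their complexes, had log2 changes of -0.41 (adjusted p = 0.0541), -0.46 (adjusted p = 0.0677) and -0.43 (adjusted p = 0.0858), and none of them overlapped between the 2 groups. The largest fitted change was that of Dscc1 at -0.66, with a wide interval of -1.13 to -0.19. Without BMC replicate 3, which had the lowest sum of the 41 genes in its group, 5 of the 41 were called lower (Gins1, Orc6, Rpa2, Tipin and Wdhd1). Leaving that library out raises the BMC level of the list, so this count is no separate support. Each of the other fits without 1 library called 0 of the 41. Over the fits without 1 library, 0 to 51 of all genes were called.

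**Figure D4:**
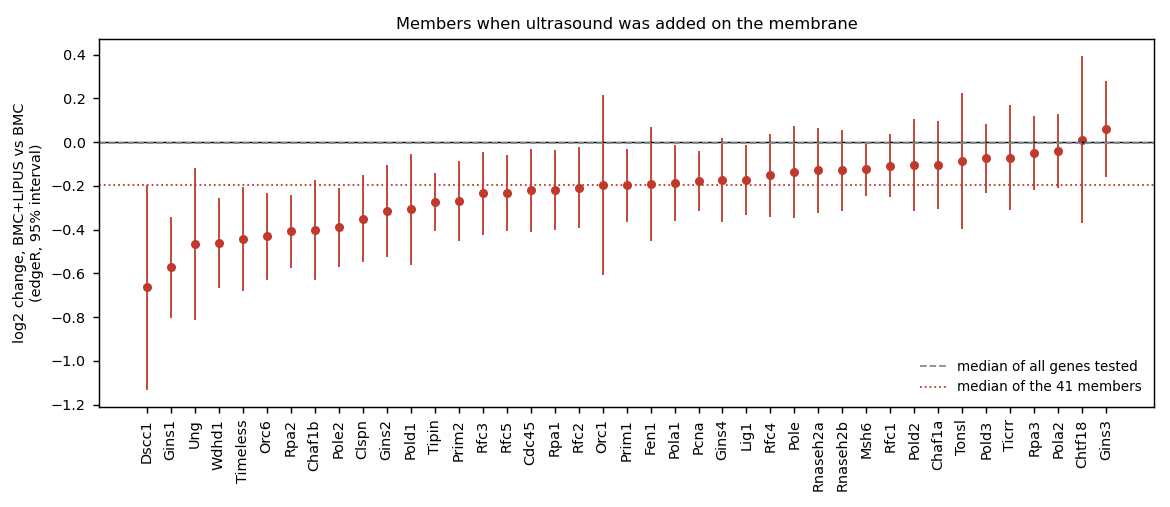
Log2 change of each of the 41 genes in BMC+LIPUS against BMC (vertical axis) with its 95% interval from edgeR, ordered from the lowest to the highest. The median of the 41 genes (red dotted line) lies at -0.20 and that of all genes tested (grey dashed line) at 0.00; no gene passed the adjusted threshold.

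Other values that moved with these genes, or did not, were as follows. The 20 genes of a G2/M list, Mki67, Top2a and Ccna2 among them, summed to 566 to 605 FPKM in BMC+LIPUS, 581 to 618 FPKM in BMC and 757 to 810 FPKM in control. Of them 14 were called lower and 0 higher in each membrane group against control, with median log2 changes of -0.31 in BMC+LIPUS and -0.36 in BMC. Ccnb1, Cdc20, Aurka, Cenpe, Tpx2 and Ube2c were called in neither comparison. Of all genes tested, 21.9% were called lower and 21.1% higher in BMC+LIPUS, and 18.8% and 17.2% in BMC. The log2 changes of the 20 genes ran from -0.76 to 0.04 in BMC+LIPUS and from -0.65 to 0.06 in BMC. Their part in the result was not tested. In BMC+LIPUS against BMC, 0 of the 20 were called by edgeR and the median was -0.03. The 10 macrophage markers were all expressed. With Lyz2 making up most of the sum, they summed to 8134 to 8460 FPKM in BMC+LIPUS, 7969 to 8771 FPKM in BMC and 7305 to 8136 FPKM in control. Of the 10, 3 were called higher and 2 lower in BMC+LIPUS against control, and 4 higher and 2 lower in BMC against control. The shares of all genes to set beside these counts are those given with the G2/M list. Cd14 had log2 changes of 0.84 in BMC+LIPUS and 0.79 in BMC, Spi1 of 0.41 and 0.35, Cd68 of -0.22 and -0.22, and Ptprc of -0.35 and -0.26. Their part in the result was not tested. Markers of other cell types were at or near 0: the sums were at most 0.56 FPKM for 8 fibroblast or osteoblast genes, 0.29 FPKM for 6 lymphocyte genes and 0.06 FPKM for 6 epithelial or endothelial genes, and Col1a2, Col3a1, Cd3e, Epcam and Cdh1 were listed at 0 in all 9 libraries. Library totals ran from 12675417 to 16574322 counts. The libraries were stranded, but the strand setting of the counting is not given in the sources used here. Whether reads of genes that overlap on opposite strands were assigned by strand is therefore not known. In the GENCODE annotation at hand, of another build, Fen1 shared 78.8% of its exonic bases with the antisense Gm10143, Gins2 67.3% with Gse1 and Chaf1a 52.5% with Ubxn6. Rfc2 shared 15.1%, Rfc4 12.7%, Orc1 10.8% and Rfc5 10.7% with a gene on the opposite strand. The values of all these genes carry that doubt.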

How the data were processed

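RNA of 9 RAW264.7 libraries, 3 each of BMC+LIPUS, BMC and control, was grouped by the treatment labels. Per the labels' protocols, polyadenylated RNA was made into stranded libraries and sequenced as read pairs. Per the submitters' processing notes, the pipeline named HISAT2 2.0.1, HTSeq 0.6.1, cutadapt 1.9.1, an unversioned DESeq2 and the build GRCm39. Not given in the sources used here were annotation, strand setting and filtering. Deposited counts are whole numbers per gene, not normalized. The deposited FPKM values were made by the authors and rounded to 2 decimals.

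Of 56691 lines, 2639 without a gene name (0.0889% to 0.0976% of a library's counts) were left out, and 77 names on several lines kept the line with the highest mean. The table's 6 columns of 3 unlabelled libraries were not used. Genes averaging 0.5 FPKM or more were tested with edgeR 4.0.16 (R 4.3.3; TMM, glmQLFit and glmQLFTest on the 3 group means over all 9 libraries), with Benjamini-Hochberg adjustment at 0.05. SEs come from the F statistic, and 95% intervals from the t distribution of the fit. The code was tested on simulated counts. Alternatives were DESeq2 1.42.0, limma 3.58.1 on log2(FPKM + 1), other scalings and filters, a fit of 6 libraries, the replicate number as a block, and leaving out each library. Library totals were 12675417 to 16574322 counts. The 41 genes and all lists were chosen with earlier results of these data known. Values by library are given for the largest and smallest change of each role group in BMC against control, and for Pcna, Ung, Timeless, Cdc45 and Rpa1. Other named genes are the 4 with the smallest p under ultrasound and the 4 largest called falls and rises of the wider list; names outside this rule are marked as picked later or given with their group. A gene named by this rule is not reported here.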

Additional observations from a re-analysis of the deposited data

How the results depend on the processing

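Against control, all 41 genes stayed lower and called under each of the 17 other settings, save that a minimum of 5 FPKM left 33 to test, all 33 called in both comparisons. For other replication and repair genes, BMC+LIPUS against control gave 27 lower (42 as reported) at a minimum of 5 FPKM, and 5 higher there and 4 by limma (8 as reported; 5 to 8 without single libraries). In BMC against control, 5 were higher as reported, 3 by DESeq2 and with no filter, 2 by limma and at 5 FPKM, 1 with library totals, and 1 to 7 without single libraries. In BMC+LIPUS against BMC, the 41 genes called lower were 0 as reported, 7 by DESeq2, 10 with no filter and 0 to 5 without single libraries. All genes called there were 13 as reported, 88 by DESeq2, 236 with no filter, 8 at 5 FPKM, 2 with only the 6 libraries, 0 by limma and 0 to 51 without single libraries. Other replication and repair genes called lower were 0 as reported, 1 by DESeq2, 2 with no filter and 0 to 1 without single libraries. With the replicate number as a block, BMC+LIPUS against BMC gave 4 of the 41 genes, 51 of all genes and 1 other replication and repair gene. Correlations of same-numbered libraries' deviations were -0.06 to 0.09 for all pairs but the third BMC+LIPUS and BMC libraries (0.21). Not every pair passed 0.1, so the title numbers were not taken to pair the libraries. For the control libraries the title numbers match the numbers of the deposited columns, and for both membrane groups they do not. Pairing membrane with control libraries by column number was not tried, so this check cannot exclude it. The block changed no other count by over 1.5 times. The cause of these differences was not tested. Dscc1 rests on as few as 32 counts in a library.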
